A study of Mus musculus with 8 samples.

Results

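The Krüppel-like factors (KLFs) other than Klf10 and Klf11 were followed in iWAT, the inguinal white fat depot that lies under the skin. Genes were taken by name from the authors' table of gene expression. All 10 names sought (Klf2, Klf3, Klf4, Klf5, Klf6, Klf7, Klf9, Klf13, Klf14 and Klf15) were present among its 54532 genes. Poly(A) RNA had been sequenced from male mice, all of them HFD-fed (on a high-fat diet). The KLF10AKO group held 4 libraries, in which KLF10 had been knocked out in adipocytes, and the wild-type (WT) group held 4. The sources used here give neither the Cre driver nor the age of the mice nor which animal gave which library, and a p-value therefore reflects library-to-library spread, which may be technical. Values are FPKM, read levels that the authors had divided by gene length and by a library size scaled between samples.

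KLFs are transcription factors that bind GC-rich and CACCC sequences through a conserved set of C2H2 zinc fingers at the end of the protein, while their variable front parts recruit activators or repressors. In fat they form part of the cascade that turns precursors into adipocytes. Klf4, Klf5, Klf6, Klf9, Klf13 and Klf15 have been described as promoting that step, and Klf2, Klf3 and Klf7 as restraining it. Several of them also act elsewhere, Klf2 above all in resting lymphocytes and in blood vessel endothelium.

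Klf2 mRNA was 4.01-fold higher in KLF10AKO iWAT than in WT iWAT, while Klf9, Klf14, Klf4, Klf15 and Klf6 were lower, by 3.5-fold, 3.15-fold, 1.89-fold, 1.69-fold and 1.26-fold (ratios of mean FPKM, n = 4 each). Klf13 was 1.25-fold higher, and Klf3 and Klf7 did not pass the test. Klf5 lay under the expression filter. The most abundant member was Klf2 in KLF10AKO and Klf9 in WT. The test was limma on log2(FPKM + 0.5) over all 16012 genes with a mean of at least 0.5 FPKM, with a Benjamini-Hochberg adjusted p under 0.05. Of the 9 KLFs tested 2 rose and 5 fell. Over all genes tested 74.3% passed, 39.4% as higher and 34.9% as lower, so the number of KLFs that passed is near the background. Among the 915 tested genes with a transcription factor family that the authors assigned, 47.9% rose and 28.9% fell, and among the 410 of the C2H2 zinc finger family, to which KLFs belong, 53.4% rose and 18.8% fell. A change of at least 2-fold on this scale was reached by Klf2 among the rises (17.6% of all genes) and by Klf9 and Klf14 among the falls (11.8% of all genes). In bulk tissue fewer cells of a type and less RNA per cell cannot be told apart.

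The libraries differ in more than Klf10. Reads recovered from the FPKM came to between 15537863 and 17499132 per library. The targeted gene Klf10 stood at 9.39, 9.68, 9.75 and 9.59 FPKM in KLF10AKO replicates 1 to 4, against 16.7, 18.2, 16.7 and 21.1 FPKM in WT replicates 1 to 4. Of 14 adipocyte markers 14 fell, with a summed level of 5163 to 6921 FPKM in KLF10AKO and 16120 to 18020 FPKM in WT. All 10 B cell markers rose, with a summed level of 1516 to 2222 FPKM in KLF10AKO and 4.78 to 5.57 FPKM in WT, where 8 of the 10 were under 1 FPKM in every library. All 10 T cell markers rose as well (257 to 383 FPKM in KLF10AKO and 4.19 to 5.86 FPKM in WT). Blood endothelial markers fell in 9 of 10 cases (329 to 375 FPKM in KLF10AKO and 665 to 746 FPKM in WT), as did 9 of 10 adipose progenitor and 7 of 10 macrophage markers, with 1 of each list higher. Of 6 tested smooth muscle markers 4 fell and 1 rose (123 to 329 FPKM in KLF10AKO and 446 to 671 FPKM in WT). Skeletal muscle markers summed to 6287, 4767, 11110 and 39.9 FPKM in KLF10AKO replicates 1 to 4, against 195 to 243 FPKM in WT, so KLF10AKO replicate 4 stood apart from the other KLF10AKO libraries. In WT most of that sum was Acta1, at a mean of 176 FPKM, while 8 of the 12 markers were under 1 FPKM in every library. Mitochondrial genes took 2.82% to 3.57% of reads in KLF10AKO against 2.91% in WT replicate 2 and at least 5.24% in the other 3 WT libraries, so WT replicate 2 stood with the KLF10AKO libraries. The part of these differences in the KLF changes was not tested. No adipocyte, B cell, T cell or endothelial marker was at 0 in any library, and of the muscle markers Tnnc2 alone was at 0 in at least 1 library of each group.

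The promoters of the members that carry the result are shown so that their letters can be set beside their levels. Promoter windows came from RefSeq (GRCm38.p6), and 8 of the 10 genes had an entry, all but Klf5 and Klf14. Those of both rising genes (Klf2, Klf13) and of a pair that fell (Klf9, Klf15) are printed 5′ to 3′ on the gene's strand, up to the base before the gene's start in the authors' table. Capitals mark 4 short motifs, on both strands: the CACCC box CCACCC, the GC box GGGCGGG, the element bound by MEF2 factors (CTA and TAG with 4 bases of any kind, N, between them), and the E-box CACGTG. Matches may overlap.
Klf2 (chr8:72318812-72319032, plus strand): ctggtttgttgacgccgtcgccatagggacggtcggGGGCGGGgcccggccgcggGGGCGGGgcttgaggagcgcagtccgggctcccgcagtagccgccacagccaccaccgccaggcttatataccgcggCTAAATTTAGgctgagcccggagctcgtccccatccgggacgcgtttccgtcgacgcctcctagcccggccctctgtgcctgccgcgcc
Klf13 (chr7:63938916-63939165, minus strand): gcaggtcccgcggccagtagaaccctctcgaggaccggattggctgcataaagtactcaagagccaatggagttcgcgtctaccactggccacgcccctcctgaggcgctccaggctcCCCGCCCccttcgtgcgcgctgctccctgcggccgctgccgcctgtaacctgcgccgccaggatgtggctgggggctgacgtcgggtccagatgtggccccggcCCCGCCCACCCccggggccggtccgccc
Klf9 (chr19:23140976-23141225, plus strand): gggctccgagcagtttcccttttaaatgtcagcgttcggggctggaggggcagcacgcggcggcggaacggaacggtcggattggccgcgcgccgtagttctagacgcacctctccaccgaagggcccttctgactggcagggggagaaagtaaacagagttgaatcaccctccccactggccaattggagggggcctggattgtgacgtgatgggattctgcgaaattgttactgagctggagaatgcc
Klf15 (chr6:90462326-90462575, plus strand): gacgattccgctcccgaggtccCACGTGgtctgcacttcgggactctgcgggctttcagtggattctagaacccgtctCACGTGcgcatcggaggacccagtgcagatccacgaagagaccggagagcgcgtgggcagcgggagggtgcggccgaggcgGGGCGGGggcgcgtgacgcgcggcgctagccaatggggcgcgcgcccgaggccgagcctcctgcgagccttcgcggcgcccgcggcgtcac

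Within the 250 bases before the RefSeq start, a GC box was found in 5 of the 8 KLF promoters, against 23.4% of all 32851 promoter windows of that length. Cut at the authors' gene start, the KLF stretches were 59.6% to 79.5% G or C, where any bases remained. The comparison with all windows did not account for this content. A CACCC box, the class of site that KLFs themselves bind, was found in 4 of the 8, against 28.1% of all windows. Of these, Klf13 alone kept a match when windows were cut at the gene's start in the authors' table. Klf2, Klf3 and Klf7 kept none, and for Klf7 no bases remained. Klf2 held 2 GC boxes, 1 CACCC box that lies outside the printed stretch, and the only MEF2 element of the 8, a motif present in 3.20% of all windows. MEF2 factors are known to drive Klf2 in endothelium. Klf15 held 2 E-boxes and 1 GC box, while Klf9 held none of the 4 motifs as spelled above. The shorter CACCC without a further C before it was not counted. It occurs unmarked in the printed stretch of Klf9 and, on the other strand, in that of Klf15. An E-box was held by 3 of the 8 promoters, against 6.02% of all windows. The MEF2 element and the E-box were added after the sequences had been seen. Of the genes that fell and are not printed, Klf4 held 4 GC boxes and 1 E-box, and Klf6 held 1 E-box. Rising and falling genes both held GC boxes, and a match describes letters alone.

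Klf2 keeps T cells at rest and lets them recirculate, holds endothelium quiescent under blood flow, and blocks Pparg in fat cell precursors. The gene is ENSMUSG00000055148, on the plus strand of mm10 chromosome 8 from 72319033 to 72321656. It had 137, 150.1, 127 and 165 FPKM in KLF10AKO replicates 1 to 4, against 38.4, 40.7, 37.3 and 28.1 FPKM in WT replicates 1 to 4. The lowest KLF10AKO library was above the highest WT library, as for 36.2% of all genes tested. Means were 145 ± 16.5 FPKM in KLF10AKO and 36.1 ± 5.55 FPKM in WT (SD, n = 4 each). On the log2 scale Klf2 changed by 1.99, with a standard error of 0.127 and a 95% interval of 1.70 to 2.28 (limma adjusted p = 1.21e-06). An exact permutation test, two-sided, gave p = 0.0286, the smallest that 4 against 4 can give. Of all genes tested, 1226 had a larger rise. Klf2 ranked 2 among the 1469 genes to which the authors' table gives a transcription factor family in KLF10AKO, and 28 in WT. Above it in KLF10AKO was Ybx1, a cold-shock domain protein, at 195 ± 14.4 FPKM, and just below it Cebpa, the master factor of mature adipocytes, at 139 ± 11.3 FPKM in KLF10AKO and 498 ± 33.3 FPKM in WT (SD, n = 4 each). The Klf2 and Cebpa means in KLF10AKO lie within 1 SD of each other.

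Klf9 is switched on by glucocorticoids and acts on the Pparg promoter in the middle of fat cell formation. It is ENSMUSG00000033863, on the plus strand of chromosome 19 from 23141226 to 23166911. Klf9 had 13.2, 13.4, 16.2 and 10.2 FPKM in KLF10AKO replicates 1 to 4, against 47.2, 46.2, 42.0 and 50.2 FPKM in WT replicates 1 to 4. All 4 KLF10AKO values lay below all 4 WT values, as for 33% of all genes tested. The means were 13.2 ± 2.43 FPKM in KLF10AKO and 46.4 ± 3.42 FPKM in WT (SD, n = 4 each). The log2 change was -1.79 (standard error 0.125, 95% interval -2.07 to -1.50, limma adjusted p = 2.02e-06), but marker scaling, described with the other scalings, ended the call (-0.24, limma adjusted p = 0.0763). Of the genes tested, 191 had a larger fall, and the rank of Klf9 among transcription factor genes was 152 in KLF10AKO and 21 in WT.

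A factor that multiplies a whole library cancels in a ratio of genes within it, which does not hold for quantile normalization. Klf2 FPKM were 10.4, 11.2, 7.83 and 16.1 times Klf9 FPKM in KLF10AKO replicates 1 to 4, against 0.814, 0.881, 0.888 and 0.559 times in WT replicates 1 to 4. The ratio was above 1 in every KLF10AKO library and below 1 in every WT library. This is a description, since the separation of the groups follows from that of Klf2 and of Klf9, each already given.

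**Figure D1:**
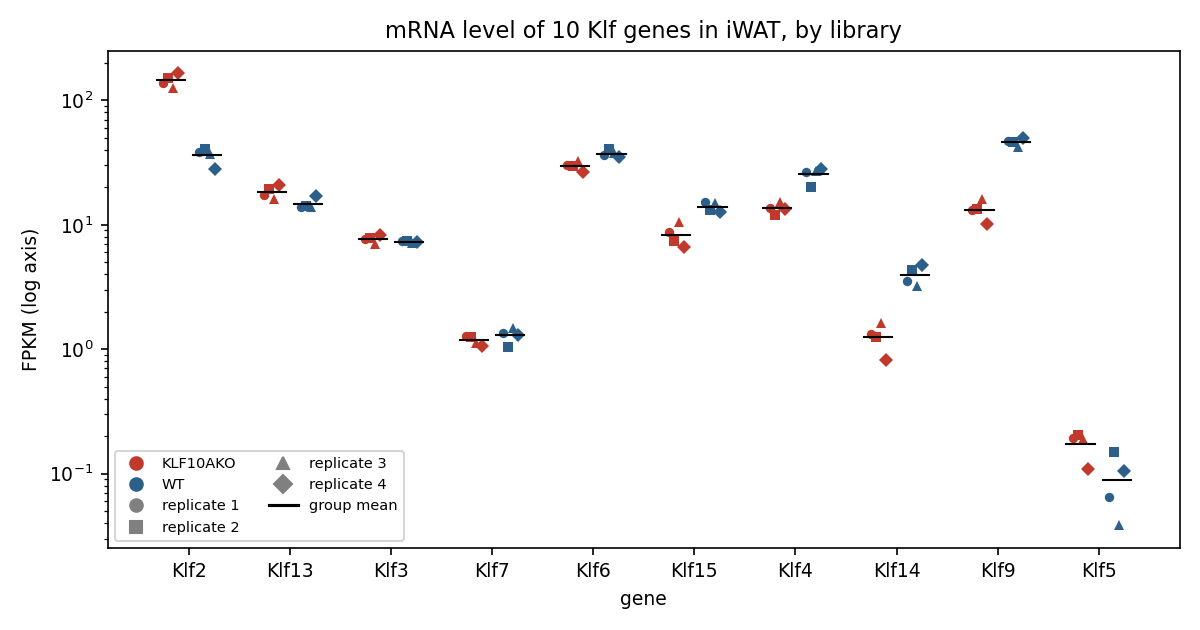
FPKM of 10 Klf genes on a log axis, in KLF10AKO (red, left) and WT (blue, right), with a symbol for each replicate and a bar at the group mean. Klf2 stands clear of WT above and Klf9 and Klf14 clear below, while Klf3, Klf7, Klf13 and Klf5 overlap.

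Klf15, like Klf9, is induced by glucocorticoids, and it is known for raising the glucose transporter gene Slc2a4 in fat and amino acid breakdown in muscle and liver. It is ENSMUSG00000030087, on the plus strand of chromosome 6 from 90462576 to 90475238. Klf15 had 8.67, 7.38, 10.5 and 6.64 FPKM in KLF10AKO replicates 1 to 4, against 15.1, 13.3, 14.9 and 12.6 FPKM in WT replicates 1 to 4. KLF10AKO lay wholly below WT, as for 33% of all genes tested, but KLF10AKO replicate 3 came closest to WT. Its log2 change was -0.73 (standard error 0.131, 95% interval -1.03 to -0.44, limma adjusted p = 7.88e-04) and turned to 0.79 when libraries were scaled to adipocyte markers.

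Klf4, a pluripotency factor that acts early in fat cell formation by switching on Cebpb together with Egr2, stood at 13.6, 11.9, 15.2 and 13.5 FPKM in KLF10AKO replicates 1 to 4, against 26.7, 20.2, 27.2 and 28.1 FPKM in WT replicates 1 to 4. Every KLF10AKO library was below every WT library, as for 33% of all genes tested, and WT replicate 2 was the lowest of its group. The log2 change of Klf4 (ENSMUSG00000003032, chromosome 4, 55527143 to 55532466, minus strand) was -0.88 (standard error 0.115, 95% interval -1.14 to -0.62, limma adjusted p = 1.05e-04), and marker scaling turned it to 0.67. Klf6, which represses the precursor gene Dlk1, stood at 30.2, 29.5, 32.3 and 26.5 FPKM in KLF10AKO replicates 1 to 4, against 36.5, 40.5, 37.8 and 34.8 FPKM in WT replicates 1 to 4. The groups lay close together without overlap. The log2 change of Klf6 (ENSMUSG00000000078, chromosome 13, 5861482 to 5870394, plus strand) was -0.33 (standard error 0.0749, 95% interval -0.50 to -0.16, limma adjusted p = 0.00316). It did not pass with TPM (-0.13, limma adjusted p = 0.351), and marker scaling gave 1.24.

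Klf13 recruits the Sin3a corepressor and is known as a late activator of the chemokine gene Ccl5 in T cells. It is ENSMUSG00000052040, on the minus strand of chromosome 7 from 63886351 to 63938915. Klf13 had 17.5, 19.3, 16.1 and 20.7 FPKM in KLF10AKO replicates 1 to 4, against 13.8, 14.1, 13.9 and 17.03 FPKM in WT replicates 1 to 4. WT replicate 4 lay above KLF10AKO replicate 3, so the groups overlap. The log2 change was 0.31 (standard error 0.0967, 95% interval 0.09 to 0.53, limma adjusted p = 0.0161). An exact permutation test, two-sided, gave p = 0.0571, and the limma call was lost with quantile normalization (0.23, limma adjusted p = 0.0641). Klf5, which stands between Cebpb and Pparg in cultured fat cell precursors, was at the edge of detection. It had 10 to 20 reads per library in KLF10AKO and 3 to 13 in WT, or 0.174 ± 0.0435 FPKM in KLF10AKO and 0.0895 ± 0.0489 FPKM in WT (SD, n = 4 each), and was not tested at this level. Fitted with no filter, its log2 change of 0.19 did not pass (limma adjusted p = 0.0863).

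Of the members described as restraining fat cell formation besides Klf2, neither passed. Klf3, a repressor that works through CtBP proteins, ran from 6.98 to 8.33 FPKM in KLF10AKO and from 7.14 to 7.39 FPKM in WT. Its log2 change was 0.06 (95% interval -0.08 to 0.20, limma adjusted p = 0.366) at the authors' scaling. Klf3 passed with TPM at 0.26 and at 1.59 once libraries were scaled to adipocyte markers. Klf7 ran from 1.06 to 1.27 FPKM in KLF10AKO and from 1.04 to 1.48 FPKM in WT, a log2 change of -0.09 (95% interval -0.34 to 0.16, limma adjusted p = 0.464). With quantile normalization it passed at -0.44 and after scaling to adipocyte markers at 1.17. In the GENCODE M21 annotation 3196 bases of Klf7 exons overlap a noncoding gene on the opposite strand and 404 bases of Klf3 exons another, and since the strand setting of the counting is not given, reads of the partners cannot be told apart.

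Klf14 is an imprinted gene without introns, whose human counterpart is known from fat as a locus of type 2 diabetes and blood lipid traits. It is ENSMUSG00000073209, on the minus strand of chromosome 6 from 30956023 to 30959078. Klf14 had 1.33, 1.26, 1.62 and 0.816 FPKM in KLF10AKO replicates 1 to 4, against 3.51, 4.31, 3.25 and 4.79 FPKM in WT replicates 1 to 4. The groups did not overlap, and KLF10AKO replicate 4 was the lowest of all. Its log2 change was -1.35 (standard error 0.165, 95% interval -1.73 to -0.98, limma adjusted p = 7.16e-05), and marker scaling ended the call (-0.09, limma adjusted p = 0.668). For Klf9, Klf14, Klf15, Klf4 and Klf6 an exact permutation test, two-sided, gave p = 0.0286 each. It is the smallest p that 4 against 4 can give and follows from the lack of overlap. All 4 KLF10AKO values lay below all 4 WT values for 33% of all genes tested.

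By length-normalised level the order of the family was Klf2, Klf6, Klf13, Klf4, Klf9, Klf15, Klf3, Klf14, Klf7 and Klf5 in KLF10AKO, and Klf9, Klf6, Klf2, Klf4, Klf13, Klf15, Klf3, Klf14, Klf7 and Klf5 in WT. In KLF10AKO the ranges of Klf4 and Klf9, of Klf9 and Klf15, of Klf15 and Klf3, and of Klf14 and Klf7 overlapped. In WT those of Klf6 and Klf2 and of Klf13 and Klf15 did. The summed FPKM of the 10 genes was 238 ± 11.7 in KLF10AKO and 187 ± 2.61 in WT (SD, n = 4 each). Without Klf2 the sum was 93.4 ± 5.11 FPKM in KLF10AKO and 151 ± 4.18 FPKM in WT, so the order of the groups turned with that gene. Klf2 took 60.6% ± 3.98 of the sum in KLF10AKO and 19.3% ± 2.81 in WT, and Klf9 5.61% ± 1.26 in KLF10AKO and 24.8% ± 1.88 in WT (SD, n = 4 each).

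**Figure D2:**
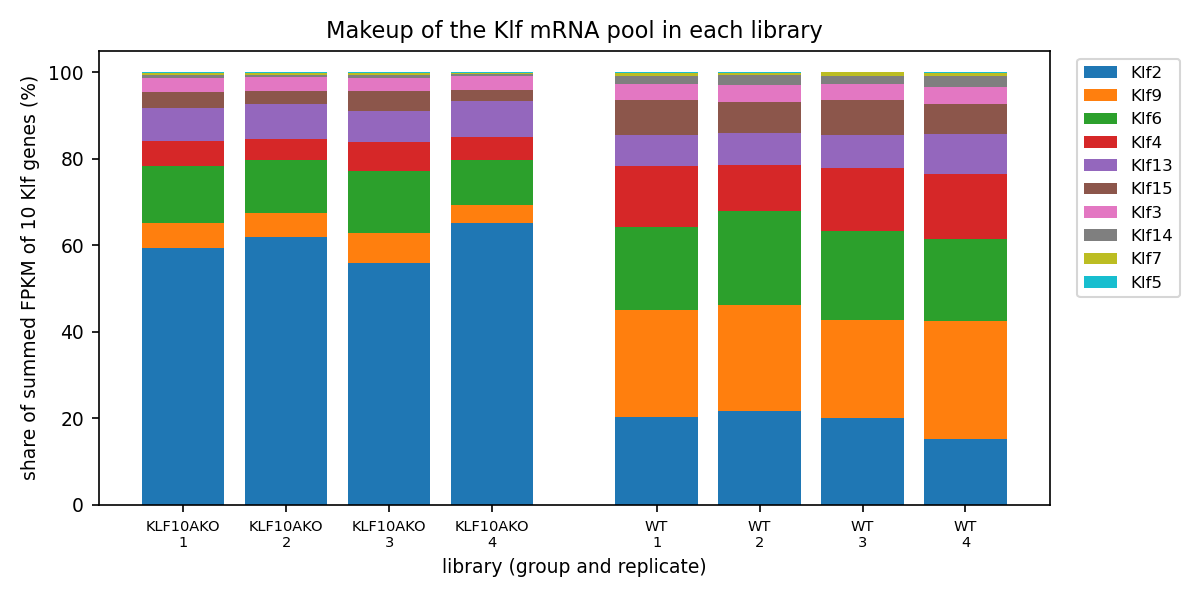
Share of the summed FPKM of the 10 genes taken by each, in percent, for the 4 KLF10AKO libraries (left) and the 4 WT libraries (right). Klf2 takes 55.8% to 65.2% in KLF10AKO and 15.2% to 21.7% in WT.

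The members also differed among the KLF10AKO libraries. Klf2, Klf13 and Klf3 were highest in replicate 4, then 2, 1 and 3, the order of the B cell and T cell marker means. Klf6, Klf14 and Klf15 had the reverse order, which was that of the adipocyte and skeletal muscle marker means. KLF10AKO replicates 1 and 2 were close for Klf6 (30.2 and 29.5 FPKM) and for Klf14 (1.33 and 1.26 FPKM). The share of all genes with either order was not counted. Klf9 was highest in replicate 3 and lowest in replicate 4 with replicates 1 and 2 nearly equal, and Klf4, Klf5 and Klf7 followed neither order. From the highest to the lowest KLF10AKO library the log2 level of Klf2 differed by 0.38, that of Klf9 by 0.64, that of Klf14 by 0.69 and that of Klf15 by 0.62, against 0.53 for B cell and 0.46 for adipocyte marker means and 8.21 for skeletal muscle. Fitted with KLF10AKO replicate 4 alone, the library with the lowest muscle markers, which is then assumed to vary like the WT libraries, 2 KLFs were higher and 5 lower of 9 (62.1% of all genes passed, 32.4% as higher and 29.7% as lower). Without KLF10AKO replicate 3, the library with the highest muscle markers, the counts were also 2 and 5 (74.1% of all genes passed, 39.2% as higher and 34.9% as lower). With replicate 4 alone Klf2 stood at 2.19 and Klf9 at -2.13, while Klf15 stood at -1.01.

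**Figure D3:**
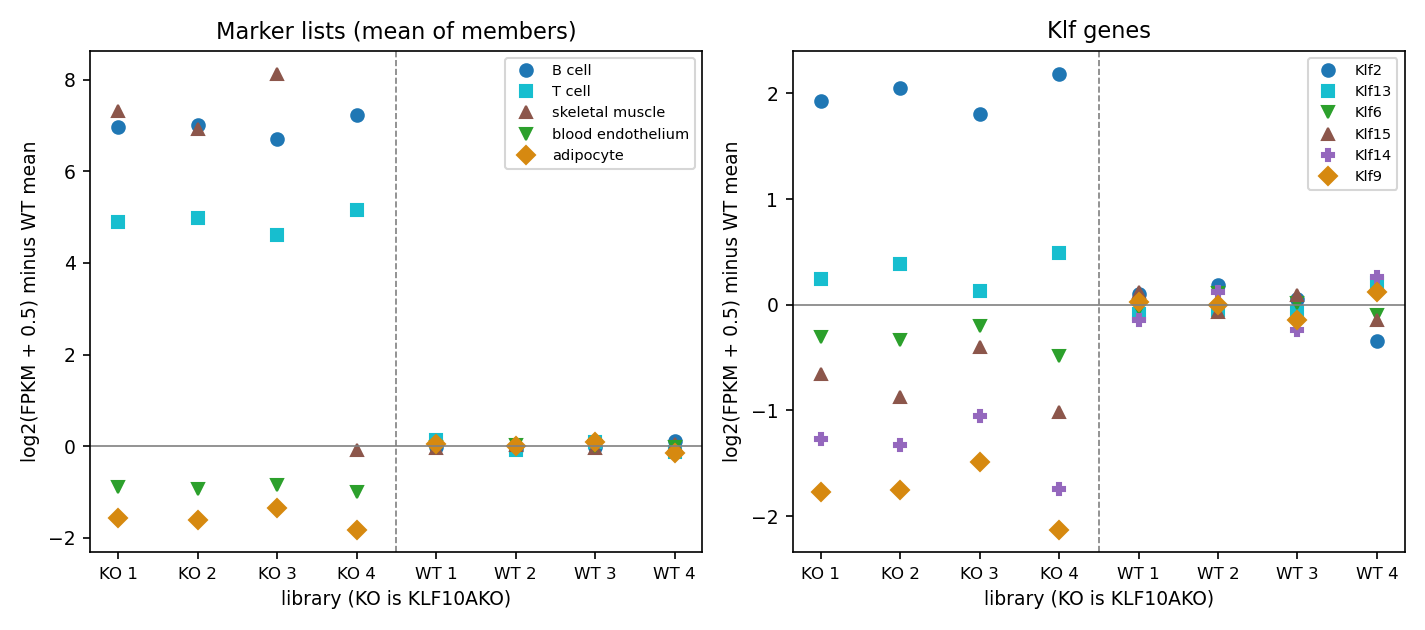
Level in each library relative to the WT mean, as log2(FPKM + 0.5), for the mean of 5 marker lists (left panel) and for 6 Klf genes (right panel), with KLF10AKO libraries left of the dashed line and WT libraries right of it. In KLF10AKO replicate 4 muscle markers average -0.08, while Klf2 is at its highest and Klf9, Klf14 and Klf15 at their lowest.

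The direction of several KLFs depended on what a library was scaled to. Among those that passed as deposited, scaling to adipocyte markers alone turned it, and division by markers that fell raises every gene. With the authors' scaling 53% of the genes that passed were higher in KLF10AKO, with TPM 63.3%, with quantile normalization 41.2% and with each library scaled to the mean of 14 adipocyte markers 98.3%. The last 3 scalings shifted the all-gene median log2 change by 0.18, -0.20 and 1.44. With TPM 3 KLFs were higher and 4 lower (69.5% of all genes passed, 44% as higher and 25.5% as lower), and with quantile normalization 1 was higher and 6 lower (75% passed, 30.9% as higher and 44.1% as lower). After marker scaling 7 of the 9 KLFs were higher and 0 lower, beside 85.8% and 1.46% of all genes (87.3% in either direction). Klf2 then stood at 3.58, while Klf9 and Klf14 did not pass. Taken relative to the median of all genes, Klf2 stood at 2.09 after marker scaling and at 1.95 as deposited, Klf9 at -1.73 and -1.83, Klf14 at -1.58 and -1.40, and Klf4 at -0.82 and -0.93.

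**Figure D4:**
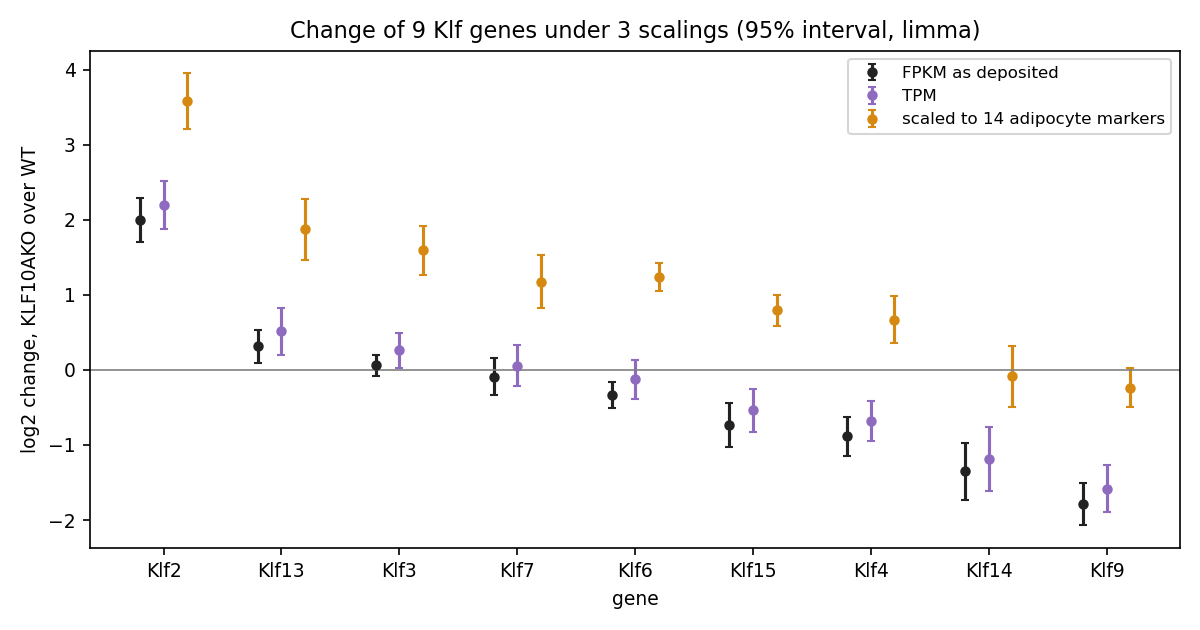
Log2 change of 9 Klf genes, KLF10AKO over WT, with 95% intervals from limma, for FPKM as deposited, for TPM and after scaling to 14 adipocyte markers. Klf2 is the highest and Klf9 the lowest in each, while Klf4, Klf6 and Klf15 lie below 0 for FPKM and above 0 after marker scaling.

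Genes around the family were read as lists, which are described by counts and not tested, beside a median log2 change of 0.05 over all genes (1.49 after marker scaling, when 85.8% of all genes were higher and 1.46% lower). The Klf10 paralogue Klf11 did not pass (7.85 ± 0.421 FPKM in KLF10AKO and 8.58 ± 0.835 FPKM in WT, SD, n = 4 each, log2 change -0.12). Of the remaining KLFs Klf16, a repressor close to Klf13, rose by 0.54 (9.24 ± 0.782 FPKM in KLF10AKO and 6.19 ± 0.204 FPKM in WT, limma adjusted p = 9.05e-05), while Klf8 at 0.19 did not pass. Klf12 and Klf1 stayed under 0.34 FPKM in every library, and Klf17 was listed at 0. The Sp factors, which share the zinc fingers and bind the same GC boxes, rose in 4 of 4 tested cases of 9, at a median of 0.46 (2.01 after marker scaling), beside 39.4% of all genes. Sp4 rose by 1.47, Sp1, a widely used activator, by 0.50, Sp2 by 0.42 and Sp3 by 0.26.

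Of 13 partner genes through which KLFs act or are degraded 7 rose and 4 fell (median 0.45, 2.02 after marker scaling), beside 39.4% and 34.9% of all genes. Set, which blocks DNA binding by KLF5, rose by 1.07 and the corepressor gene Ctbp1 by 0.45. Its sister Ctbp2 fell by 1.01, the acetylase gene Kat2b by 0.59 and Wwp1, a ubiquitin ligase of KLF2 and KLF5, by 0.94. After marker scaling these 3 stood at 0.39, 0.97 and 0.59. Of 20 genes reported as targets of KLFs, 5 of the 19 tested rose and 12 fell (median -0.77, 0.74 after marker scaling), against the same 39.4% and 34.9%. Itgb7, an integrin chain of lymphocytes and a target of Klf2, rose by 4.91 and was at 80.2 ± 13.1 FPKM in KLF10AKO and 2.18 ± 0.385 FPKM in WT (SD, n = 4 each). Ccl5, the target of Klf13, rose by 4.91 as well. S1pr1, the receptor that lets lymphocytes leave nodes, rose by 0.41 (61.9 ± 3.09 FPKM in KLF10AKO and 46.35 ± 2.49 FPKM in WT, SD, n = 4 each). It was thus expressed in WT too, where B and T cell markers were low. The endothelial targets of Klf2 were lower as deposited, with Nos3, endothelial nitric oxide synthase, at -1.41 and Thbd, thrombomodulin, at -0.75 (0.09 and 0.77 after marker scaling). S1pr1, Nos3 and Thbd were chosen after their values were seen. B cell, T cell and endothelial markers moved the same ways, and their part was not tested.

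Of 15 tested adipogenic regulators 3 rose and 10 fell (median -0.89, 0.56 after marker scaling), where 39.4% of all genes rose and 34.9% fell. Pparg, the receptor on which many of the fat KLFs converge, changed by -1.93 (18.2 ± 2.78 FPKM in KLF10AKO and 70.5 ± 6.0 FPKM in WT, SD, n = 4 each), Cebpa by -1.84, Zfp423 by -1.37 and Srebf1 by -1.11. After marker scaling Pparg stood at -0.37, Cebpa at -0.25, Zfp423 at 0.10 and Srebf1 at 0.46. Gata3, Egr2 and Stat5b rose by 1.87, 0.90 and 0.52, of which Gata3 is also a T cell factor. Of 14 tested genes of the glucocorticoid response, to which Klf9 and Klf15 belong by their known control, 9 fell and 1 rose (median -0.46, 1.10 after marker scaling), beside 34.9% of all genes lower and 39.4% higher. Zbtb16 changed by -2.10, Hsd11b1, which regenerates active glucocorticoid, by -1.39 and Ddit4 by -0.77, and Nfkbia rose by 1.17. After marker scaling Zbtb16 stood at -0.67, Hsd11b1 at 0.18 and Ddit4 at 0.81.

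Of 16 immediate early genes, a class induced quickly by stimuli that can also induce Klf2, Klf4 and Klf6, 12 rose and 1 fell, at a median of 0.94 (2.39 with marker scaling), beside 39.4% and 34.9% of all genes. Myc rose by 2.27, Egr3 by 3.73, Egr1 by 1.86 and Nr4a1 by 1.83, while Maff fell by 0.85 (0.69 after marker scaling).

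The genes whose pattern over the 8 libraries was most like that of Klf2 were Irf4, a transcription factor gene, Dnajc9, a histone chaperone gene, and Itgb3, an integrin chain. Likeness was the root mean square difference of log2(FPKM + 0.5) centred on the WT mean, over 12857 protein-coding genes, and it came to 0.0459, 0.0873 and 0.0945 for them. Irf4 stood at 9.23, 10.2, 8.63 and 11.0 FPKM in KLF10AKO replicates 1 to 4, against 2.38, 2.26, 2.08 and 1.46 FPKM in WT replicates 1 to 4. Its highest and lowest KLF10AKO libraries were those of Klf2, which follows from its choice by likeness over the same libraries. Nearest to Klf9 were Sod3, the extracellular superoxide dismutase gene, Acss3, a mitochondrial short-chain acyl-CoA synthetase gene, and Svep1, a matrix adhesion gene, at 0.0503, 0.0539 and 0.0665. Sod3 stood at 107, 107, 131 and 86.7 FPKM in KLF10AKO replicates 1 to 4, against 352, 349, 346 and 399 FPKM in WT replicates 1 to 4.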

How the data were processed

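Per the labels, poly(A) RNA of 8 iWAT libraries was fragmented and primed with random hexamers. The submitters' processing notes name mm10, edgeR 3.22.5, HISAT2 2.0.5 and featureCounts 1.5.0-p3. What each did, with which annotation and strand setting, is not given in the sources used here. Genes were deposited by the authors as FPKM with gene lengths. FPKM were multiplied by length and divided by the smallest such product above 0 in each library, which was taken as a single read. Of the values above 0, 100% then came within 0.01 of a whole number, so reads could be recovered.

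The groups were compared with limma 3.58.1 (lmFit, eBayes with trend) in R 4.3.3 on log2(FPKM + 0.5) of genes with a mean of at least 0.5 FPKM, with no covariate, two-sided, adjusted by Benjamini-Hochberg. Single genes also had an exact permutation test over 70 splits. Fold changes on this scale understate those of low genes. The fit was tested on simulated data. Every pair of replicates differed beyond counting noise (mean squared z between 5.23 and 102). The members and lists were chosen with earlier results of these data known. From each list the text names up to 4 genes of lowest p and up to 3 that passed against its direction, except 1 gene that is not reported here. Sequence came from RefSeq windows of GRCm38.p6, and no protein table was used here. Alternatives were pseudocounts of 1 and 0.1, filters, TPM, quantile and marker scaling, voom on recovered reads at the authors' scaled library sizes, robust eBayes, a replicate block, protein-coding genes alone, KLF10AKO replicate 4 alone and each library left out.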

Additional observations from a re-analysis of the deposited data

Results flagged for a closer look

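Of 24 groups of 4 values, for 10 KLF genes and Klf10 and Klf11, 2 held a library far from the others by Dixon's criterion, which flags about 1 group in 20 by chance. Klf5 in KLF10AKO replicate 4 was 0.109 FPKM, below the other 3 libraries of its group, and rests on 10 reads. Klf13 in WT replicate 4 was 17.03 FPKM, above the other 3 WT libraries. The same WT library had the lowest Klf2 of its group (28.1 FPKM) and the highest Klf9 (50.2 FPKM). Without it Klf13 changed by 0.38 and Klf2 by 1.88.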

How the results depend on the processing

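Of 220 refits of single KLF genes 203 kept direction and side of the threshold. In the refits with other filters, robust eBayes, a replicate block or protein-coding genes alone the log2 change could not move, only its p-value. Klf5, which had no main test, was counted as kept because its log2 change was the same. Klf2 passed as higher in all 20 of its refits, at 1.88 to 3.58. Scaling to adipocyte markers placed 13738 genes higher and 233 lower, with 7 KLFs higher and 0 lower, and turned Klf4 to 0.67, Klf6 to 1.24, Klf7 to 1.17, Klf15 to 0.79, Klf10 to 0.66 and Klf11 to 1.41. Its construction, division by markers that fell, raises every gene. TPM turned Klf7 to 0.0573 and Klf11 to 0.0780. Quantile normalization turned Klf3 to -0.12 and left 1 KLF higher. The cause was not tested. Leaving out each library gave 5991 to 6269 genes higher and 5307 to 5593 lower, with 2 KLFs higher and 5 lower each time. Deviations of same-numbered libraries were nearly uncorrelated between groups (r from 0.00300 to 0.0310). For replicates 1 and 3 (0.0211 and 0.0310) r was nevertheless above that of every differently numbered pair, of which the highest was 0.0112. Whether the numbers pair the libraries cannot be told from values this small. With a replicate block 6220 genes were higher and 5506 lower, with the same KLF counts. The count test of edgeR was not run on the recovered reads, and voom used the authors' library sizes in place of TMM. Klf5, at 3 to 20 reads per library, is limited by depth.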
